A study of Mus musculus with 8 samples.

Results

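Mature dendritic cells (DCs) are DCs that express the chemokine receptor gene Ccr7 and the actin-bundling gene Fscn1 and are known to leave a tissue for the draining lymph node. They were chosen here by their own UMI counts, where a UMI (unique molecular identifier) stands for 1 captured mRNA molecule. Among cells with more than 500 detected genes and under 25% mitochondrial UMIs, a mature DC had at least 2 UMIs of Ccr7, at least 1 of Fscn1 and at least 5 of the MHC class II genes H2-Ab1 and Cd74 together. It also had at most 1 UMI of the type 1 DC genes Xcr1 and Clec9a and none of Cd3e, Cd79a and Siglech, which mark T cells, B cells and plasmacytoid DCs. The rule found 172 mature DCs among 80474 kept cells (0.214%). Their levels of these 9 genes are fixed by the rule and are given only as a description.

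The cells came from the whole livers of 8 C57BL/6 wild-type mice, perfused, dissociated with collagenase IV, papain and DNase I and measured in 8 libraries with droplet capture and 3' counting. The 2 control mice were given a normal diet, the 3 HFD+F+CCl4 mice a high-fat diet and the 3 WD+F+CCl4 mice a western diet. Both of the latter groups, called NASH mice below, also had fructose solution to drink and intraperitoneal injections of the hepatotoxin CCl4, so diet, fructose and CCl4 cannot be told apart in any comparison with control mice. No DCs were sorted or enriched, and the ages of the mice are not used here. In the order of their replicate numbers, the libraries held 36699315 and 6135827 UMIs in the control mice, 49738207, 52880918 and 55186165 under HFD+F+CCl4 and 62694610, 46275590 and 64855024 under WD+F+CCl4. Below, values of 8 mice are always given in that order.

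Several libraries stood apart before any comparison of DCs. Control replicate 2 was shallow, with a median of 992.5 UMIs per kept cell against 2397 in control replicate 1 and 3159 to 4278 in the NASH mice. Over all kept cells of a mouse, the mitochondrial gene mt-Nd3 was at 3.10 and 4.52 UMIs in each 1000000 UMIs (CPM) in the control mice and at 521 to 1402 in the NASH mice. The mitochondrial gene mt-Nd4l was at 37.3 and 78.4 CPM in the control mice and at 0.737 to 2.48 in the NASH mice, and Gm10076 was at 254 and 108 against 710 to 1568. The ribosomal pseudogene Rpsa-ps10 was at 484 CPM in control replicate 1 and at 4.72 to 7.83 in the other 7 libraries. The hepatocyte transcript Alb was at 1823 and 1895 CPM in the control mice and at 42.3 to 664 in the NASH mice. A difference in how the control and NASH libraries were made or counted was not tested and cannot be told apart from the groups, so every control comparison below carries it. For some genes that differed between control and NASH mice, values over all kept cells or in other cell types are also given. No barcode was shared between mature DCs of different libraries, and 5 of the 172 had a barcode that another library also held among its kept cells.

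In the classical account, a tissue DC that takes up antigen and meets a danger or homeostatic signal switches on CCR7, stops sampling its surroundings and moves along CCL19 and CCL21 to the lymph node, where it shows peptides on MHC molecules to T cells. Part of this program runs through NF-kB, whose non-canonical arm joins the kinase NIK (Map3k14), the precursor p100 (Nfkb2) and the subunit RelB. Mature DCs carry costimulatory ligands and, at the same time, inhibitory molecules such as PD-L1 (Cd274), so that both sides of T cell control are found on the same cell.

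The regulatory sequences of this NF-kB axis were taken from RefSeq (GRCm38.p6) as the 250 bases before an annotated start. The NF-kB (kappaB) consensus of 10 letters, searched on both strands with overlapping matches counted, was present in 2382 of 32851 promoters of the mouse genome table (7.25%). Of the 15 genes in a list of the NF-kB pathway and survival, 13 were matched by symbol with 18 promoters, of which 7 from 5 genes (Nfkb2, Rel, Nfkbie, Tnfaip2 and Bcl2l1) held it (38.9%). Among the 15 genes that stood highest above other DCs (described below), 10 were matched and 0 of their 12 promoters held it, which says only that these letters are not in those windows. The promoters of Nfkb2 (chr19:46304487-46304736, plus strand), Rel (chr11:23770970-23771219, minus strand) and Nfkbie (chr17:45555450-45555699, plus strand) are shown because they lie at genes whose transcripts were followed in mature DCs. Capitals mark the consensus and the rest is in lower case, 5' to 3'.
Nfkb2: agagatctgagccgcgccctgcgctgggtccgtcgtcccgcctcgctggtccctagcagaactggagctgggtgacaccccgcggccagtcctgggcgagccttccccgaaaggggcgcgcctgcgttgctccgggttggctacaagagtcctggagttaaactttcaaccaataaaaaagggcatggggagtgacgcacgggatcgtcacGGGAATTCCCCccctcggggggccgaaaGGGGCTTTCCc
Rel: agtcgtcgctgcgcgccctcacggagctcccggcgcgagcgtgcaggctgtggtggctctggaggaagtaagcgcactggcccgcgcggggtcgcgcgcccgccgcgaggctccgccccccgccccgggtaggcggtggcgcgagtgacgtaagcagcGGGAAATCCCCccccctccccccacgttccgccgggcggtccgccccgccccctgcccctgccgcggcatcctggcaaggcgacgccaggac
Nfkbie: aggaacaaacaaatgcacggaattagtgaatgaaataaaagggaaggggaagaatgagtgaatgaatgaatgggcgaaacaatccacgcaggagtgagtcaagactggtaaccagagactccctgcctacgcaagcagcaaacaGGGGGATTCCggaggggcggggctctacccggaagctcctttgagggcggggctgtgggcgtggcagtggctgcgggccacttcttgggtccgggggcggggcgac
A match describes letters in a window and does not show that a factor is bound there.

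The label was checked against its marker genes first. Ccr7 and Fscn1 each had a median of 5 UMIs per mature DC, with 2 to 53 for Ccr7 and 1 to 53 for Fscn1. Ccl22, a chemokine that attracts CCR4-bearing T cells, and Cd83, which keeps MHC class II on the cell surface, were not in the rule. Cd83 had a UMI in 85.5% of mature DCs (95% Wilson interval 79.4 to 90.0) and Ccl22 in 44.8% (37.5 to 52.2). The same shares were 16.1% and 3.70% of 1919 Cd209a DCs, and 2.34% and 0.448% of 8263 T cells, which are only 1 guide to free RNA. Cd83 had a UMI in 25.5% of type 1 DCs, 20.6% of macrophages, 14.6% of B cells and 4.68% of neutrophils. For Ccl22 these shares were 4.76%, 0.942%, 0.606% and 0.466%. Median depths were 5803 UMIs per cell in mature DCs, 5790 in Cd209a DCs and 2809 in T cells. After thinning each cell to 1000 UMIs, which left out 3 mature DCs, 5 Cd209a DCs and 217 T cells, the shares for Cd83 were 34.3%, 4.75% and 0.808%. For Ccl22 they were 23.1%, 0.993% and 0.149%, so both markers kept their order at equal depth. The intervals cover counting error only. Cd209a itself, the marker of the other DC gate, had a UMI in 2.33% of mature DCs. Ccl19, the CCR7 ligand that lymph node DCs are known to make, had a UMI in 0 of 172. By the limit of 3 cells that a count of 0 allows, up to 1.74% of such cells could hold a UMI, which sets no limit on cells that express the gene.

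The limits run through a continuous range of counts. The 32 cells with exactly 2 UMIs of Ccr7 held Ccl22 at 740 CPM and Relb at 1240, and the 52 cells that met every other limit with 1 UMI of Ccr7 held 748 and 931. The 111 cells with no Fscn1 that met the other limits held Relb at 711 CPM. Only 8 cells met all limits except that on Xcr1 and Clec9a. The number of mature DCs is thus a number above a limit.

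Markers of other cell types were present in some of these cells. A marker sum of another cell type reached its limit in 58 of 172 mature DCs (33.7%). Most often it was that of the macrophage complement genes C1qa, C1qb and C1qc (43 cells, 25%). The limit was at least 2 UMIs for the macrophage, T cell, B cell and endothelial sums. It was set higher for the neutrophil and hepatocyte sums. The C1q share differed widely between libraries of the same group. It was 0% in both control mice, 64.5%, 42.9% and 16.9% under HFD+F+CCl4 and 0%, 8.33% and 12.5% under WD+F+CCl4. T cells of the same libraries, which do not make C1q, had 0.0962% and 0%, then 62.1%, 29.8% and 7.16%, then 4.46%, 5.68% and 29.0%. In HFD+F+CCl4 replicate 1 the shares of mature DCs and T cells were therefore nearly the same. T cell markers (Cd3d, Cd3g and Trbc2) were met in 6 mature DCs, 5 of them in the control mice (3 of 11 and 2 of 8 cells).

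**Figure D1:**
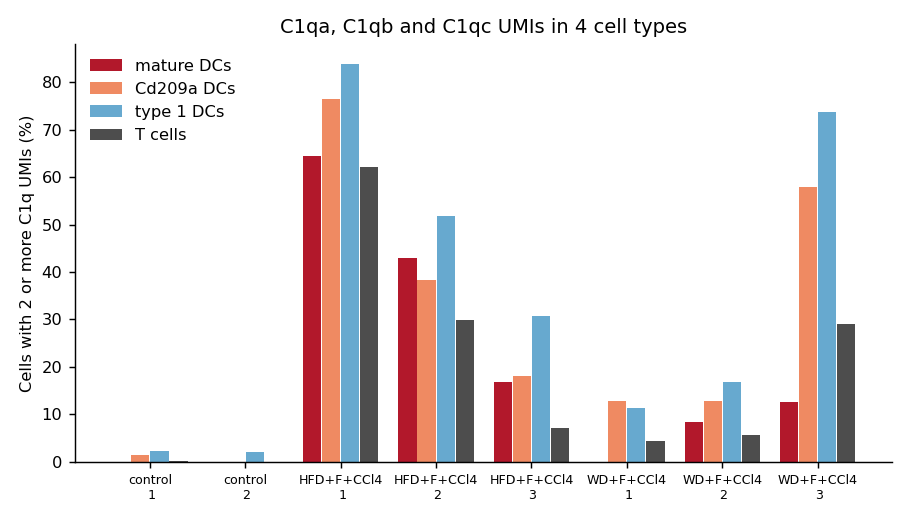
Share of cells (%) with at least 2 UMIs of C1qa, C1qb and C1qc together in each mouse, as bars for mature DCs, Cd209a DCs, type 1 DCs and T cells. The share of mature DCs runs from 0% to 64.5% and is highest in HFD+F+CCl4 replicate 1, where T cells are at 62.1%.

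Compared with control mice, NASH mice did not differ in the share of mature DCs beyond the spread between mice. Mature DCs numbered 11 and 8 in the control mice, 31, 21 and 71 under HFD+F+CCl4 and 10, 12 and 8 under WD+F+CCl4. Their share of kept cells was 0.102% and 0.192%, then 0.277%, 0.207% and 0.666%, then 0.0833%, 0.122% and 0.0683%. HFD+F+CCl4 mice all lay above WD+F+CCl4 mice, and the control mice lay between, with control replicate 1 inside the range of the WD+F+CCl4 mice. HFD+F+CCl4 replicate 3 alone supplied 71 of the 172 cells. Without the cells that held markers of another type, the shares were 0.0984%, 0.0988% and 0.507% under HFD+F+CCl4 and 0.0750%, 0.112% and 0.0597% under WD+F+CCl4, so the models then overlapped.

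The mean share was 0.147% ± 0.0636 (SD, n = 2) in control, 0.384% ± 0.247 (n = 3) in HFD+F+CCl4 and 0.0912% ± 0.0276 (n = 3) in WD+F+CCl4 mice. The difference between NASH and control mice was 0.0905 percentage points (exact two-sided permutation test over mice, p = 0.643, smallest possible p = 0.0357). With 3 against 2 mice the smallest possible p is 0.1, and the exact p was 0.3 for both HFD+F+CCl4 (0.237 points) and WD+F+CCl4 (-0.0558 points) against control. WD+F+CCl4 mice were lower than HFD+F+CCl4 mice by 0.293 points, and the exact permutation p of 0.1 is the smallest that 3 against 3 mice allow. After Benjamini-Hochberg adjustment over these 4 comparisons the values were 0.643, 0.4, 0.4 and 0.4. Without HFD+F+CCl4 replicate 3, the NASH difference was 0.00470 points (exact permutation p = 1, smallest possible 0.0476). The HFD+F+CCl4 difference from control was then 0.0954 points, and that of WD+F+CCl4 from HFD+F+CCl4 mice was -0.151. Without cells holding markers of another type, these differences were 0.142 (exact permutation p = 0.7) and -0.153 points (exact permutation p = 0.3).

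As a share of the 3 DC types gated by counts, mature DCs made up 6.47% and 10.7% in control mice, 7.40%, 2.91% and 13.5% in HFD+F+CCl4 mice and 2.54%, 2.01% and 2.85% in WD+F+CCl4 mice. WD+F+CCl4 mice were below every other mouse by this measure. The difference was -6.10 points from control and -5.47 from HFD+F+CCl4 mice, each with an exact permutation p of 0.1, the smallest possible. The denominator moved as well. Cd209a DCs averaged 0.550% ± 0.167 (n = 2) of kept cells in control, 2.83% ± 1.23 (n = 3) in HFD+F+CCl4 and 2.90% ± 1.90 (n = 3) in WD+F+CCl4 mice.

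A limit in UMIs finds fewer cells in a shallow library. Cells were therefore also thinned to 1000 UMIs before the rule was applied, and those with fewer UMIs were left out. This left 2031 of 4168 kept cells in control replicate 2, with 3 mature DCs (0.148%). In control replicate 1 it left 10231 of 10788, with 2 mature DCs (0.0195%). The NASH difference in the share of kept cells turned to -0.0289 points. The HFD+F+CCl4 difference from control was then 0.00432 points (exact permutation p = 1), and that of WD+F+CCl4 from HFD+F+CCl4 mice was -0.0664. Among gated DCs the NASH difference was -3.37 points, against 0.0905 points among all kept cells. Its direction thus depended on the denominator and on the thinning, which changed both the depth and the cells counted.

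**Figure D2:**
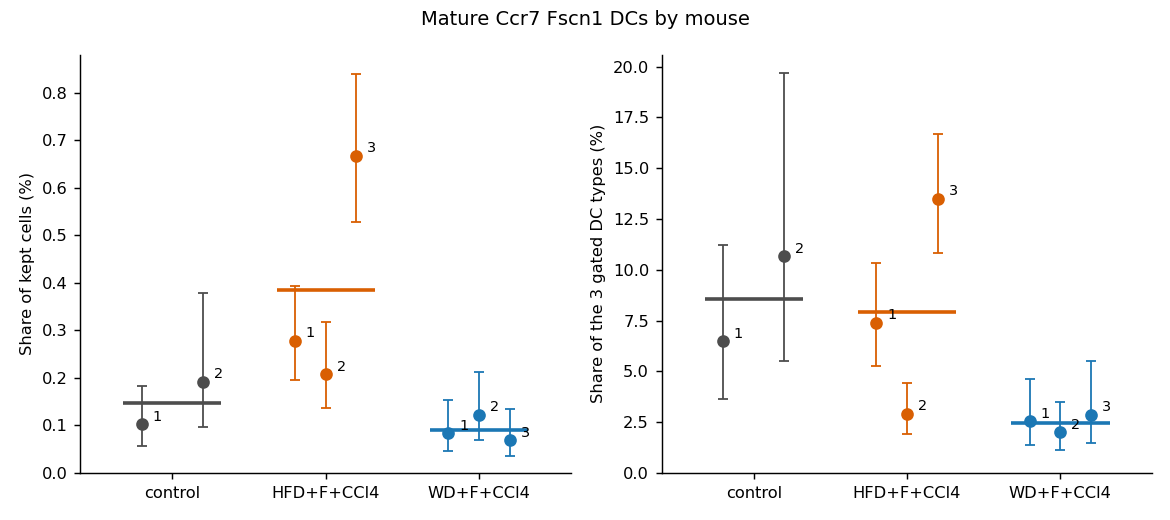
Mature DCs of each mouse as a share of kept cells (%) and as a share of the 3 gated DC types (%), by group, with points for mice (replicate numbers beside them), 95% Wilson intervals as bars and the group mean as a line. HFD+F+CCl4 replicate 3 is highest at 0.666% of kept cells, and the WD+F+CCl4 mice lie between 0.0683% and 0.122%.

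The transcriptome of mature DCs is described beside 2 other DC types gated in the same way. Cd209a DCs (1919 cells) had at least 2 UMIs of Cd209a and no Ccr7, and type 1 DCs (1092 cells) had at least 2 UMIs of Xcr1 and Clec9a and no Ccr7. UMIs were summed over the cells of a type in each mouse and given as CPM, which compares 1 gene between samples but not 2 different genes. Log2 ratios had 10 CPM added to both sides. The 6 mice with at least 10 mature DCs were compared, and control replicate 2 and WD+F+CCl4 replicate 3, with 8 cells each, are given as values. Since the gates fix this contrast, the ratios are a description with no test. Among 8433 genes outside the gates, 8.51% were higher in mature DCs in all 6 mice and 23.2% were lower, and the median log2 ratio was -0.27.

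Genes with the largest smallest ratio over the mice came first. Cacnb3, a subunit of voltage-gated calcium channels, stood at 487 and 256 CPM in the control mice, 634, 356 and 363 under HFD+F+CCl4 and 303, 333 and 450 under WD+F+CCl4 (chr15:98630840-98644529, GRCm38). Its median in Cd209a DCs was 0 CPM and the log2 ratio ran from 4.97 to 6.01. A UMI of Cacnb3 was found in 79.1% of mature DCs, 0.208% of Cd209a DCs and 0.327% of T cells, so it was rare in both other types. Socs2, a suppressor of cytokine signalling, stood at 776 and 171 CPM, 417, 343 and 349 CPM and 338, 302 and 450 CPM (chr10:95385362-95417180), with a log2 ratio of 4.73 to 5.50. In T cells Socs2 had a UMI in 15.4% and in Cd209a DCs in 1.56% of cells, against 74.4% of mature DCs.

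Il4i1, a secreted amino acid oxidase known to restrain T cells, stood at 1289 and 1195 CPM in the control mice, 1557, 1247 and 1533 under HFD+F+CCl4 and 1229, 1618 and 1269 under WD+F+CCl4 (chr7:44816387-44840809). The 8 values lay within a narrow range, while Cd209a DCs had a median of 47.7 CPM. Fabp5, a fatty acid carrier, stood at 3643 and 85.4 CPM, 3113, 3475 and 4945 CPM and 5967, 3735 and 3397 CPM (chr3:10012548-10016607), with a median of 108 in Cd209a DCs. Control replicate 2 was the exception with 1 UMI, and in its 8 cells 1 UMI was worth 85.4 CPM. Over all kept cells Fabp5 was at 61.9 and 78.2 CPM in the control mice and at 227 to 839 in the NASH mice. Apol7c, an apolipoprotein L gene, was at 1105 and 1110 CPM, 1186, 596 and 437 CPM and 766, 438 and 246 CPM (chr15:77524852-77533316), with a median of 0 in Cd209a DCs. Tspan3, a tetraspanin, was between 514 and 1140 CPM in all 8 mice, against a median of 20.9 in Cd209a DCs.

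The other genes of this set were Zmynd15, Adcy6 (an adenylate cyclase), Gadd45b (a stress-response gene), H2-Eb2 (an MHC class II beta chain gene), Relb, Lima1 (an actin-binding gene), Tmem123, Tbc1d4 (a regulator of vesicle traffic) and Ly75 (the endocytic receptor DEC-205). All 15 were higher in mature DCs than in Cd209a DCs in 8 of 8 mice. The smallest log2 ratios over the 6 mice ran from 3.49 for Ly75 to 4.97 for Cacnb3.

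The 10 genes that stood lowest differed in how they stood in type 1 DCs. Clec10a, a lectin that takes up galactose-bearing antigens, was at 0 CPM in 5 of the 8 mice and at most 15.1, against a median of 257 in Cd209a DCs (chr11:70156197-70170834). Mgl2, its close relative, had no UMI in any mature DC, against 126 CPM. The median of Mgl2 in type 1 DCs was 5.53 CPM. Alox5ap, needed for leukotriene synthesis, was at 0 and 0 CPM, 58.7, 68.5 and 95.9 CPM and 89.1, 106 and 20.5 CPM, against 714 in Cd209a DCs and 610 in type 1 DCs. Olfm1 (277 and 264 CPM) and the calcium channel gene Itpr1 (161 and 169) were likewise near-equal in the other 2 types. Clec10a and Mgl2 are close paralogs, and reads of such genes may be split between them. Ifitm6, Gpr141, Ly6a, Ifi203 and Kmo completed the 10, and 9 of the 10 were lower in all 8 mice, the exception being Ly6a in control replicate 2 (427 CPM, which is 5 UMIs).

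**Figure D3:**
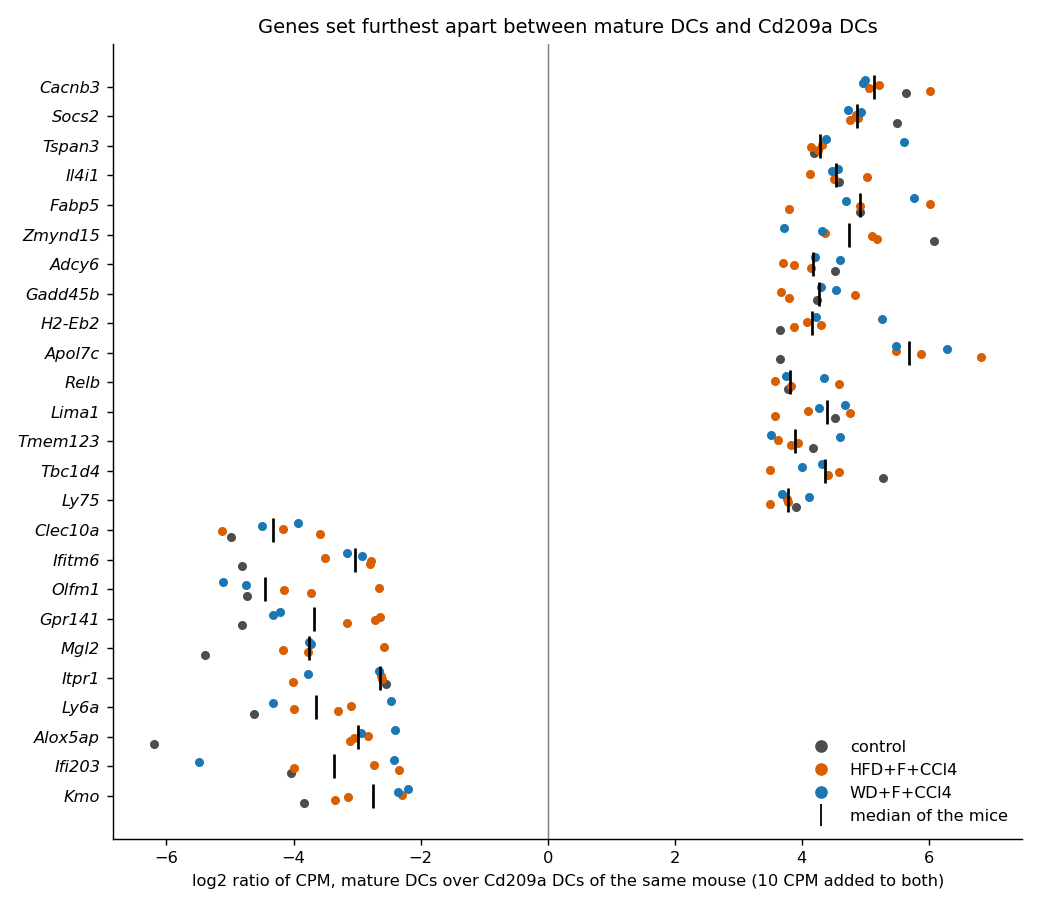
Log2 ratio of CPM in mature DCs over Cd209a DCs of the same mouse, with 10 CPM added to both, for the 15 genes set highest and the 10 set lowest; points are the 6 mice compared and the bar is their median. Cacnb3 lies between 4.97 and 6.01, and the ratios of the 10 lower genes are all below 0.

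Genes of migration and of the cytoskeleton were mostly higher in mature DCs. Of 9 measured outside the gates, 7 were higher in all 6 mice and 1 was lower, with a median log2 ratio of 2.12. Marcks, which ties actin to the membrane, was at 2223 and 598 CPM, 1386, 1474 and 1024 CPM and 1692, 1013 and 1473 CPM, against a median of 270 in Cd209a DCs. Its relative Marcksl1 was at 512 to 1250 CPM against 114, and the adaptor Samsn1 at 837 to 1657 against 123. The myosin Myo1g, the protease Adam8, the adhesion ligand Icam1 and the actin gene Actg1 were the others, and the actin-sequestering Tmsb10 was the lower one (962 to 5464 CPM, against a Cd209a median of 2200).

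NF-kB and survival genes formed the next group, with 10 of 15 higher, 1 lower and a median log2 ratio of 1.72. Relb, the partner of p52, was at 566 and 1024 CPM in the control mice, 1451, 1172 and 1055 under HFD+F+CCl4 and 1354, 1104 and 1432 under WD+F+CCl4 (chr7:19606217-19629438). All 8 values lay above the highest Cd209a value of 92.3 CPM. Nfkb2, which encodes p100 and whose promoter above holds 4 matches, was at 250 and 85.4 CPM, 370, 171 and 219 CPM and 214, 212 and 246 CPM, against 61.1. Map3k14 (NIK) was at 166 to 358 CPM against 43.5, and Rel at 327 to 683 against 139. The signalling adaptor Traf1 (512 to 1105 CPM against 92.1) and the inhibitors of cell death Birc2 (212 to 552 against 35.2) and Birc3 (85.4 to 352 against 62.1) were higher as well. Nfkb1, the canonical p105 gene, was the lower one, at 90.7 to 598 CPM against 419, with control replicate 2 above its Cd209a DCs. Nfkb2 and Nfkb1 thus stood on opposite sides. Nfkbie, an inhibitor of NF-kB, was at 0 to 160 CPM against 69.0, higher in the 6 mice compared but not in the other two.

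In the costimulation and the regulatory list, more genes were higher than lower. Of 7 costimulation genes, 4 (Cd40, Cd80, Cd83 and Icosl) were higher in all 6 mice, 1 was lower and the median log2 ratio was 1.10. Cd40 was at 316 and 171 CPM, 194, 185 and 215 CPM and 107, 151 and 102 CPM, above the Cd209a median of 35.0 in every mouse. Cd80 was low (0 to 39.5 CPM), Icosl was at 85.4 to 272 against 80.8 and Cd86 at 13.7 to 171 against 31.1, while Cd48 was lower (29.4 to 107 against 251). Of 14 regulatory and inhibitory genes, 8 were higher and 3 were lower. Cd274 was at 71.2 to 327 CPM against 17, and the inhibitory ligand Cd200 at 121 to 342 against 11.5. Aldh1a2, which makes retinoic acid, was at 52.6 and 0 CPM, 52.9, 144 and 23 CPM and 35.6, 75.6 and 246 CPM, against 1.46. Pdcd1lg2 (PD-L2) differed in sign between mice, and the galectin Lgals9 was lower (0 to 41.1 against 90.7), as were Havcr2 and Cd200r1. Ido1 had no UMI in mature DCs.

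Chemokine genes did not move as 1 group. Of 8 measured, 3 (Ccl5, Ccl22 and Cxcl16) were higher in all 6 mice and 1 (Cxcl10) was lower. Ccl5, a T cell and NK cell attractant, was at 4867 and 4012 CPM in the control mice, 4112, 3002 and 3104 under HFD+F+CCl4 and 8621, 1542 and 6937 under WD+F+CCl4, against a Cd209a median of 52.5. It had a UMI in 80.8% of mature DCs and also in 72.3% of T cells, which are known to make it, but in 10.8% of Cd209a DCs and 5.67% of neutrophils. In WD+F+CCl4 replicate 1, the mouse with the highest level, a single mature DC held 376 of the 484 Ccl5 UMIs. Cxcl16 was at 427 to 1569 CPM against 168. The CCR4 ligand Ccl17 was at 0 to 341 CPM and differed in sign between mice, whereas Ccl22 was higher in each.

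In cytokine genes, 7 of 15 were higher and 3 were lower. Il12b, the p40 subunit of IL-12 and IL-23, was at 303 and 768 CPM, 64.6, 240 and 286 CPM and 481, 30.2 and 40.9 CPM. It had a UMI in 22.1% of mature DCs and in 0 of 1919 Cd209a DCs, where the same limit allows up to 0.156% of cells with a UMI. The partner subunits Il12a and Il23a had no UMI. The remaining higher genes were the IL-2 receptor gene Il2ra, Il15 and its receptor chain Il15ra (65.8 to 286 CPM against 7.69), Il7r (0 to 237 against 15), and the TNF receptor genes Tnfrsf4 (75.6 to 276 against 1.66) and Tnfrsf9 (0 to 160 against 0.241). Ifngr1 (26.3 to 181 against 335), Tgfb1 (52.6 to 176 against 278) and the TSLP receptor gene Crlf2 (0 to 82.2 against 118) were lower.

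Of 16 transcription factor genes of DCs, 9 were higher than in Cd209a DCs and 2 were lower. Etv3 was at 855 and 427 CPM, 952, 857 and 629 CPM and 677, 620 and 921 CPM, against 58.1. Nr4a3, an orphan nuclear receptor known from DC migration, was at 143 to 540 CPM against 5.26. Batf3, which type 1 DCs need, was at 197 to 381 CPM, above the Cd209a median of 79.3 and near the type 1 median of 232. Irf8 lay between the types, at 166 to 645 CPM against 106 in Cd209a DCs and 1794 in type 1 DCs. Klf4 (0 to 200 against 191) and Spi1, which encodes PU.1, were lower, and Irf4 was at 0 to 55.6 CPM against 61.3. The type 1 markers Naaa (0 to 30.2 CPM against 1265 in type 1 DCs) and Cadm1 (0 to 75.4 against 208) were low in mature DCs.

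Antigen-handling genes split by function. Of 18 MHC class I genes, 12 were higher and 1 was lower, with a median log2 ratio of 0.81. H2-K1 was at 1452 to 3585 CPM against 1363, and Psme2, an activator of the proteasome, at 529 to 2118 against 225. Of 12 MHC class II genes outside the gate, 6 were lower and 1, H2-Eb2, was higher (median -0.68), and against type 1 DCs the median was 0.11. H2-DMa, which loads peptides, was at 171 and 171 CPM, 364, 274 and 320 CPM and 178, 272 and 164 CPM, against 847. The class II transactivator Ciita was at 40.9 to 328 CPM against 491. Of 13 antigen uptake genes, 6 were lower and Ly75 was higher (median -1.23). The median of the class I list was thus above that of all genes (-0.27), and the medians of the class II and uptake lists were below it, with H2-Eb2 (4.15) and Ly75 (3.77) far above.

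Cell cycle genes were low, with 10 of 12 lower, 0 higher and a median log2 ratio of -1.62. Mki67, a proliferation marker, was at 0 and 427 CPM, 64.6, 41.1 and 11.5 CPM and 0, 90.7 and 0 CPM, against 179 in Cd209a DCs. A UMI of Mki67 was found in 8.14% of mature DCs, 17.5% of Cd209a DCs and 10.1% of T cells. Lipid genes had 4 higher and 1 lower of 18 (median 0.32). Their shares of 22.2% higher and 5.56% lower stood beside 8.51% and 23.2% of all genes. Shares were nearer to those of all genes for pathogen sensing (1 higher and 5 lower of 16, median -0.30). The same held for interferon-stimulated genes (3 and 5 of 17, median -0.63). It also held for immediate early and heat shock genes (2 and 4 of 18, median -0.59). Genes named by the study in fibrosis (2 and 2 of 14, median -0.35) were nearer as well. Spp1, a matrix protein of scar macrophages, was at 0 and 0 CPM, 341, 27.4 and 7.67 CPM and 17.8, 30.2 and 81.9 CPM, with HFD+F+CCl4 replicate 1, the mouse with the highest C1q share, far above the rest.

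**Figure D4:**
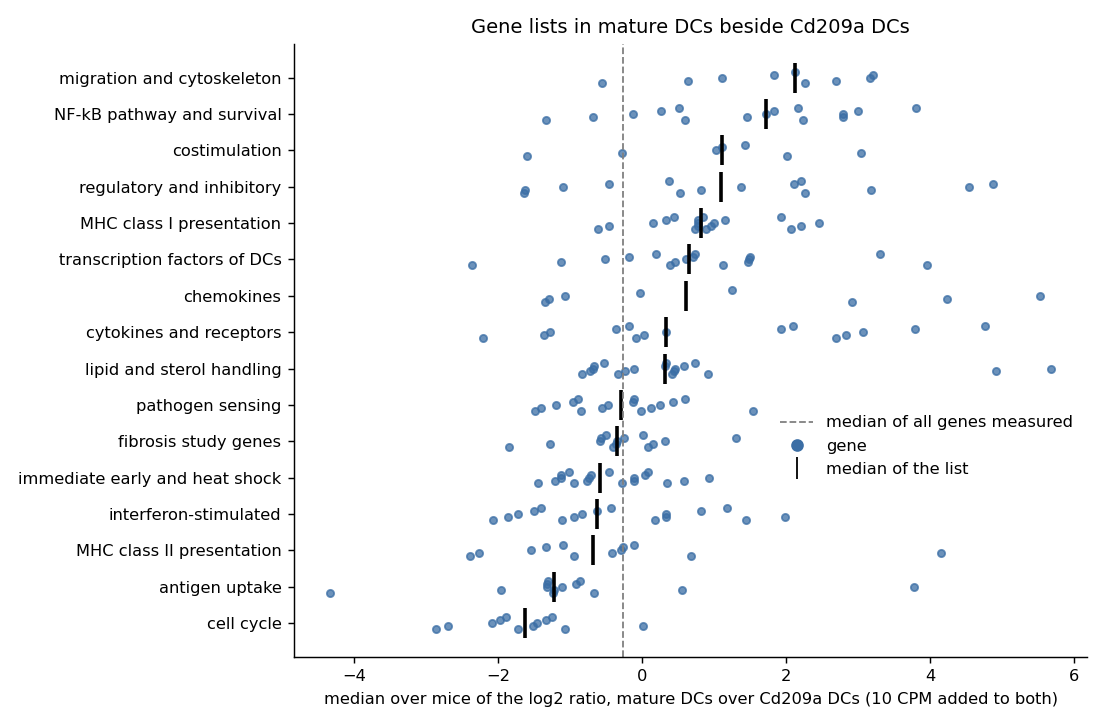
Median over 6 mice of the log2 ratio of CPM, mature DCs over Cd209a DCs with 10 CPM added to both, for the genes of each list (points), with the median of the list (bar) and of all genes measured (dashed line, -0.27). Migration genes have the highest median of these lists (2.12) and cell cycle genes the lowest (-1.62).

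Genes within mature DCs were then compared between groups of mice, to see whether the cells differ with NASH. UMIs of the mature DCs were summed for each mouse and tested with edgeR's quasi-likelihood test with Benjamini-Hochberg adjustment over 2827 genes. The fit held the 6 mice with at least 10 mature DCs, so every contrast with control rests on control replicate 1, with 11 cells, and its p-values take that mouse to vary like the others. The comparisons with control share that mouse. With a threshold of 0.05 on the adjusted p, NASH and control mice differed in 34 genes (1.2%), 9 higher (0.318%) and 25 lower (0.884%). HFD+F+CCl4 mice differed from control mice in 8 genes (0.283%), with 1 higher (mt-Nd3, 0.0354%) and 7 lower (0.248%). WD+F+CCl4 mice did so in 8 genes (0.283%), with 2 higher (mt-Nd3 and Ly6e, 0.0707%) and 6 lower (0.212%). With library sizes alone as the scaling, which put the median of all genes at 0.28, the NASH calls were 15 higher and 25 lower. The calls against control were then 5 and 7 for HFD+F+CCl4 and 11 and 12 for WD+F+CCl4. In a fit of all 8 mice, 18 genes were called for NASH (7 higher and 11 lower), of which 13 were among the 34. HFD+F+CCl4 then had 7 higher and 6 lower and WD+F+CCl4 5 higher and 4 lower. With the replicate number as a block in the 6 mice, the calls were 27 higher and 14 lower for NASH, 33 and 10 for HFD+F+CCl4 and 21 and 14 for WD+F+CCl4, so the balance of rises and falls depended on the fit. In the fit of all mice but control replicate 1, with no block, the single gene called was Fabp5, which is not among the 34 and had 1 UMI in control replicate 2.

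Txn1, the thioredoxin that reduces oxidised proteins, fell in NASH mice. It stood at 2775 and 2049 CPM in the control mice, 452, 829 and 689 under HFD+F+CCl4 and 623, 696 and 634 under WD+F+CCl4. Both control mice, including the one left out of the fit, lay above all 6 NASH mice. Genes with the largest changes were named only if the groups in the fit did not overlap. For them, here and below, such an order is fixed for the mice of the fit. Only control replicate 2 and WD+F+CCl4 replicate 3, which were outside it, could break that order. A large part came from single cells: 1 cell held 96 of the 211 Txn1 UMIs in control replicate 1. Another held 13 of 24 in control replicate 2. Under HFD+F+CCl4 the highest cell held 20 of 77, 32 of 121 and 32 of 359 Txn1 UMIs. The log2 fold change was -2.20 (SE 0.36, edgeR adjusted p = 0.0101), and -1.88 (adjusted p = 0.00399) with all 8 mice. In Cd209a DCs of the same libraries Txn1 was at 303 and 246 CPM, 229, 238 and 271 CPM and 244, 289 and 283 CPM, and in T cells at 349 to 533 CPM, with the groups overlapping in both. Type 1 DCs held 598 to 1239 CPM, and the groups overlapped there too. In the fit of 8 mice without control replicate 1 the change was -1.02 and did not pass, a fit in which the median of all genes was 0.39.

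Rps27l, a ribosomal protein-like gene induced by p53, fell likewise. Its values were 2183 and 2134 CPM, then 499, 576 and 564 CPM, then 695, 423 and 1044 CPM, and both control mice lay above all NASH mice. The log2 fold change was -2.11 (SE 0.36, edgeR adjusted p = 0.0116). Cd209a DCs were at 386 and 368 CPM in the control mice and at 279 to 361 in the NASH mice.

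Ccl22 also fell, but less evenly. It was at 2341 and 683 CPM in the control mice, 470, 891 and 554 under HFD+F+CCl4 and 142, 378 and 143 under WD+F+CCl4. The log2 fold change was -2.65 (SE 0.41, edgeR adjusted p = 0.00604) for NASH and -3.33 (SE 0.53, adjusted p = 0.0138) for WD+F+CCl4 mice. HFD+F+CCl4 replicate 2 lay above control replicate 2, whereas all WD+F+CCl4 mice lay below all others. The gene was carried by few cells: 8 of 11 mature DCs held 178 UMIs in control replicate 1, of which 54 were in 1 cell, and in HFD+F+CCl4 replicate 1 a single cell held 41 of 80. Without control replicate 1, the fit of the other 7 mice gave -0.22 for NASH and did not pass, so the call rests on that mouse.

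Other genes that fell were Serpinb6b, an inhibitor of proteases, with 1342 and 1366 CPM, 464, 439 and 320 CPM and 356, 121 and 962 CPM (log2 fold change -2.25, SE 0.42, edgeR adjusted p = 0.0231), Rasa2, a Ras GTPase activator (-2.57), and the mitochondrial Cmc2 (-3.14). In all 3, both control mice lay above every NASH mouse, which the naming rule had fixed for the mice of the fit. Fxyd2, a sodium pump regulator (-5.90), and the glycogen starter Gyg (-2.62 in WD+F+CCl4 mice, with 539 and 341 CPM in control and 89.1, 106 and 307 in WD+F+CCl4 mice) were called too. With all 8 mice, Serpinb6b (edgeR adjusted p = 0.0949) and Rasa2 (0.162) did not pass.

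Lyz2, the lysozyme of myeloid cells, rose in NASH mice. It was at 26.3 and 85.4 CPM in the control mice, 1586, 322 and 1337 under HFD+F+CCl4 and 873, 2283 and 737 under WD+F+CCl4. All NASH mice lay above both control mice, which together held 3 UMIs in 87740. The mean of the 6 NASH mice (1190 ± 698 CPM, SD) was 34.8 times the control level, with a counting interval of 11.9 to 169 on the control UMIs. The edgeR adjusted p was 0.0417 with 6 mice and 0.0111 with 8. In T cells of the same libraries, which do not make lysozyme, Lyz2 was at 319 and 1033 CPM, 1038, 681 and 539 CPM and 1891, 1405 and 883 CPM, so that the control mature DCs lay below the T cells of their own libraries. In Cd209a DCs it was at 7654 and 3162 CPM in control mice and 1548 to 2607 in NASH mice.

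Ms4a6c, Wfdc17 and Lst1, also genes of myeloid cells, rose as well. Ms4a6c, a membrane protein of monocytes and macrophages, had no UMI in mature DCs of either control mouse and stood at 211, 75.4 and 240 CPM and 232, 438 and 123 CPM in the NASH mice. Against a limit of 3 UMIs over both control mice, it was at least 6.43-fold higher (edgeR adjusted p = 0.0498). T cells held 42.9 and 89.2 CPM in the control mice and 78.0 to 209 in the NASH mice. Wfdc17, a secreted protein of activated macrophages, was at 13.2 and 0 CPM, 429, 555 and 309 CPM and 214, 786 and 1064 CPM (adjusted p = 0.0429), with 16.4 and 25.9 in T cells of control mice and 40.3 to 319 in those of NASH mice. Lst1 was at 78.9 and 0 CPM, 529, 541 and 554 CPM and 374, 786 and 266 CPM (log2 fold change 2.68, SE 0.58, adjusted p = 0.0437). For these genes, T cells of NASH mice mostly held more than those of control mice as well, and the part of free RNA in the rise was not tested.

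Monocyte markers as a list had 1 of 6 tested genes called (Lyz2), and their summed level in mature DCs was 105 and 512 CPM in control mice, 2226, 596 and 2145 in HFD+F+CCl4 mice and 1514, 3735 and 859 in WD+F+CCl4 mice. The macrophage list had 0 of 6 called by edgeR (2 at an unadjusted p under 0.05, a level met by 393 of all 2827 genes, 13.9%), with a median log2 fold change of 6.68 beside 0.11 over all genes. Its summed level was 0 and 85.4 CPM in control mice, 2338, 377 and 763 in HFD+F+CCl4 mice and 125, 469 and 266 in WD+F+CCl4 mice, with C1qa as its most abundant gene. All NASH mice thus lay above both control mice in this sum. They did so too for Lyz2, Ms4a6c, Wfdc17 and Lst1, where the naming rule had fixed it for the mice of the fit. Gated macrophages numbered 15 and 1 in the control mice, 3006, 2079 and 1377 under HFD+F+CCl4 and 1127, 1550 and 2846 under WD+F+CCl4. The part of macrophage transcripts in those rises was not tested. Of the lists for DC function, 0 of 9 migration genes outside the gate, 0 of 14 NF-kB genes, 0 of 5 costimulation genes, 0 of 8 regulatory genes and 0 of 18 MHC class I genes tested were called by edgeR for NASH. At an unadjusted p under 0.05 there were 3, 2, 1, 3 and 4, beside the 13.9% of all genes. Their median log2 fold changes were -0.69, -0.35, -0.67, -0.16 and -0.37, beside 0.11 over all genes. Of the 11 MHC class II genes tested outside the gate, also 0 were called (1 unadjusted, median 0.66), and of 6 chemokine genes only Ccl22 was. The antigen uptake list had 0 of 11 tested genes called (3 unadjusted), with a median of 1.68.

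Other calls were also present over all kept cells of a library. mt-Nd3 (0 and 0 CPM in the control mice, 399 to 532 in the NASH mice) and Rpsa-ps10 (355 CPM in control replicate 1, 0 to 15.1 elsewhere) followed the libraries described at the start. Alb fell from 1486 and 683 CPM to 17.8 to 254 and Apoa2 from 513 and 341 CPM to 0 to 21.1. The hepatocyte list had 3 of 8 tested genes lower (Alb, Apoa2 and Serpina1c, median -3.40), and T cells of the control mice held Alb at 1088 and 1237 CPM. mt-Cytb was at 10046 CPM over all kept cells of control replicate 1, against 1794 to 4067 in the other libraries. The rises of Gm2a, Ly6e, Ifitm3 and Bclaf1 rested on control replicate 1, since control replicate 2 overlapped the NASH mice in each.

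**Figure D5:**
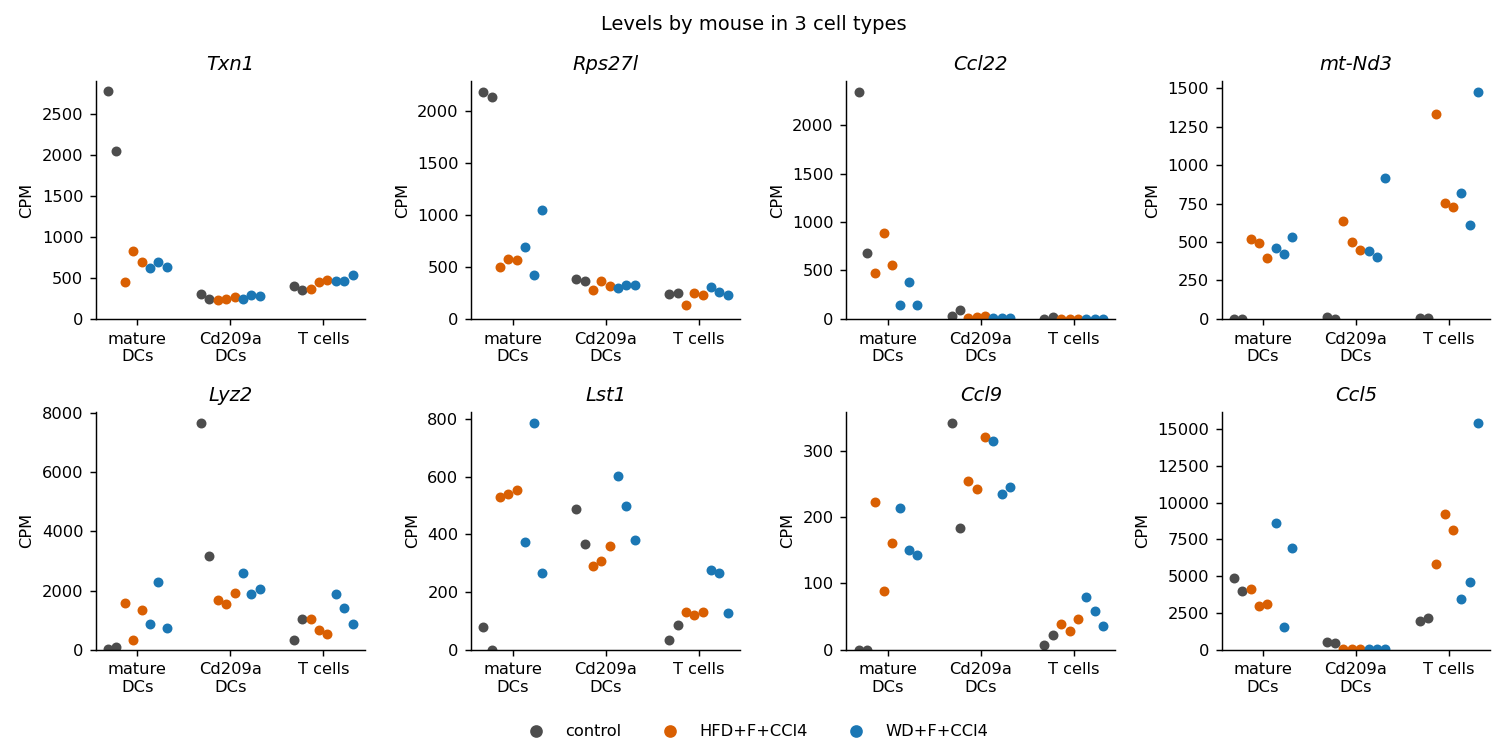
CPM (linear axes) of Txn1, Rps27l, Ccl22, mt-Nd3, Lyz2, Lst1, Ccl9 and Ccl5 in mature DCs, Cd209a DCs and T cells, with 1 point per mouse coloured by group. For Txn1 in mature DCs the control mice are at 2775 and 2049 CPM and the NASH mice between 452 and 829.

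Between the NASH models edgeR called 0 genes (0%), with 124 genes at an unadjusted p under 0.05 and 1 gene, Chil3, by DESeq2. In HFD+F+CCl4 replicate 1, Jun (1574 CPM), an immediate early gene, and Hspa1a (670 CPM), a heat shock gene, stood above the other 7 mice (0 to 471 and 0 to 266). The immediate early and heat shock list had 0 of 17 tested genes called between the models by edgeR. At an unadjusted p under 0.05 there were 5, beside 124 of all 2827 genes (4.39%). The median log2 fold change of the list was -2.33 (WD+F+CCl4 minus HFD+F+CCl4), beside -0.0124 over all genes.

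Whether NASH acted differently on mature DCs and on Cd209a DCs was tested as an interaction in 1 edgeR fit, with the mouse as a block and 8669 genes. Control replicate 1 was the only control mouse in it, and no fit of the interaction left that mouse out. The difference passed for 39 genes (0.45%), 28 higher (0.323%) and 11 lower (0.127%) in mature DCs, with a median over all genes of 0.47. Under RLE size factors, DESeq2's scaling, the split was 28 higher and 20 lower and the median 0.32. Txn1 was among the lower ones, with a difference of -1.81 (SE 0.41, adjusted p = 0.00616), or -1.62 (adjusted p = 0.0378) with all 8 mice. Without HFD+F+CCl4 replicate 1 the Txn1 difference was -1.67 and did not pass (adjusted p = 0.0553). Rps27l had -1.67 (SE 0.42, adjusted p = 0.0219), which did not pass with 8 mice (-1.32, adjusted p = 0.133). The tetraspanin Cd63 was lower as well, at 973 and 854 CPM, 417, 521 and 545 CPM and 819, 348 and 430 CPM in mature DCs and at 7.38 and 0 CPM in control and 15.3 to 45.8 in NASH Cd209a DCs. Control mice were thus the higher ones in mature DCs and the lower ones in Cd209a DCs, with a difference of -3.0 between the 2 log2 fold changes (SE 0.76, adjusted p = 0.0283). Both Cd209a values of control mice were near 0 CPM, so the size of that difference rests on few UMIs. Over all kept cells Cd63 was at 16.1 and 16.4 CPM in control mice and 89.7 to 306 in NASH mice.

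For Ccl5, Apol7c and Basp1 the groups overlapped in mature DCs, and for Psap, Cybb and Ccl9 they did not. Ccl5 was at 534 and 460 CPM in Cd209a DCs of control mice and at 38.3 to 69.1 in NASH mice, while mature DCs overlapped between the groups (difference 3.00, SE 0.37, edgeR adjusted p = 1.31e-12). B cells of the control libraries also held more Ccl5 (344 and 927 CPM against 10.2 to 69.8). Apol7c was at 78.7 and 0 CPM in Cd209a DCs of control mice and at 0 to 0.580 in NASH mice, so control replicate 2 overlapped the NASH mice there, and the groups overlapped in mature DCs too. Basp1, a membrane-bound signalling protein, was at 39.4 and 30.7 CPM in Cd209a DCs of control mice and 167 to 204 in NASH mice, with 427 to 898 in mature DCs of all mice (difference -2.23). Over all kept cells it was at 19 and 26.2 CPM in control and 129 to 178 in NASH mice. Psap, the precursor of lysosomal saposins, was at 671 and 427 CPM in mature DCs of control mice and at 859 to 2808 in NASH mice (difference 1.89, SE 0.38, adjusted p = 0.0006). The NADPH oxidase gene Cybb and the chemokine gene Ccl9 had 1 and 0 UMIs in the mature DCs of both control mice together, and stood at 81.9 to 575 and 89.1 to 223 CPM in the NASH mice. Of the monocyte markers, 4 of 8 (Lyz2, Plac8, F13a1 and Csf1r) had a higher difference, and Ccl5, Cxcl9 and Cxcl10 were the 3 of 11 chemokine genes that did. A higher difference is not a rise in mature DCs. Cxcl10 was at 0 and 427 CPM in mature DCs of the control mice and at 0 to 23.5 in NASH mice, while Cd209a DCs held 642 and 0 CPM in control and 13.1 to 167 in NASH mice. F13a1 had no UMI in mature DCs of control mice and was at 0 to 24.9 CPM in NASH mice, while Cd209a DCs held 322 and 246 CPM in control and 14.5 to 54.1 in NASH mice. Cxcl9 overlapped between the groups in mature DCs (26.3 and 341 CPM against 0 to 514).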

How the data were processed

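The authors deposited UMI counts per gene and cell barcode in 1 matrix (55450 genes, 88581 barcodes), in which the barcode suffix names the mouse. Per the labels and the study's methods, livers were perfused and dissociated, dead cells were removed, and libraries were made with 10x Chromium 3' chemistry and processed with bcl2fastq and Cell Ranger against GRCm38. The submitters' notes also name GRCh38.

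Cells with over 500 genes and under 25% mitochondrial UMIs were kept. Members and gene lists were chosen with earlier results of these data known. No clustering or doublet caller was used, and possible doublets were described through markers of other cell types. Cd209a DCs and type 1 DCs also had at least 5 UMIs of H2-Ab1 and Cd74 and none of Cd3e, Cd79a and Siglech. T cells, B cells, neutrophils and macrophages were gated by counts of their markers. Shares were compared with exact permutation tests, counted over all splits of the mice. The same test in SciPy 1.17.1 gave equal p-values on simulated cases. UMIs summed per mouse were tested with edgeR 4.0.16 (TMM, quasi-likelihood, minimum count 10, Benjamini-Hochberg), and DESeq2 1.42.0 was an alternative. The labels give separate mice, and mice are the replicates.

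Named genes were the 10 largest rises and falls past an adjusted p of 0.05, with a mean log2 CPM over 6 and no overlap of the groups in the fit, the 15 highest and 10 lowest beside Cd209a DCs by their ratio in the least different mouse (median of at least 100 CPM in the higher type), and list members of highest level or past the threshold. Genes named outside this rule, such as Fabp5 and Chil3 in single alternatives, were chosen after their values were seen. The permutation test and both tools were tested on simulated data. In the summed mature DCs of a mouse, 1 UMI was worth 1.92 to 85.4 CPM. Python 3.11.15, pandas 2.3.3, numpy 2.4.6, matplotlib 3.10.9 and R 4.3.3 were used.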

Additional observations from a re-analysis of the deposited data

Results flagged for a closer look

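Among 49 values tested in the 6 NASH mice for a single mouse far from the others, 5 had one, where chance gives about 1 in 20. The share of mature DCs was farthest in HFD+F+CCl4 replicate 3 (0.666%). Tspan3 stood apart in WD+F+CCl4 replicate 1 (1140 CPM) and Ly6e in WD+F+CCl4 replicate 2 (1421 CPM). Apoa2 was at 0 CPM in WD+F+CCl4 replicate 2, where 1 UMI was worth 15.1 CPM, and at most at 21.1 CPM in the other NASH mice. All these values lay below the 45.4 CPM that 3 UMIs were worth in WD+F+CCl4 replicate 2, so this flag rests on about 1 UMI. The gene mt-Cytb was at 2701 CPM in WD+F+CCl4 replicate 3.

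A different NASH effect in mature DCs and in Cd209a DCs, tested as an interaction with edgeR in 6 mice and called with all 8 mice as well, was found for 11 genes. The difference (mature DCs minus Cd209a DCs, log2) was 11.19 for Ms4a6c, 10.88 for Ccl9, 7.45 for Lyz2, 7.35 for Apol7c and 4.75 for Cybb. It was 3.39 for Tnfaip2, 3.00 for Ccl5 and 1.89 for Psap, and -3.0 for Cd63, -2.23 for Basp1 and -1.81 for Txn1. The sizes for Ms4a6c, Ccl9, Lyz2, Cybb and Tnfaip2 rest on 0 to 3 UMIs in the mature DCs of the control mice and depend on the prior count of the fit. That for Apol7c rests on Cd209a DCs near 0 CPM in NASH mice, and that for Cd63 on Cd209a DCs near 0 CPM in control mice. Control replicate 1 was the only control mouse among the 6. The fit of all 8 mice held it too, so neither fit shows these differences without that mouse.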

How the results depend on the processing

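The difference in the share of mature DCs between NASH and control mice was 0.0905 points and turned to -0.0289 after thinning to 1000 UMIs, -0.00993 with thinning and Ccr7 of at least 1 UMI, -0.469 among cells with MHC class II and -3.37 among gated DCs, and it was 0.0455 without control replicate 1, 0.00470 without HFD+F+CCl4 replicate 3 and 0.0527 in cells with over 1000 genes. For HFD+F+CCl4 against control (0.237) these 4 were 0.00432, 0.0549, -0.205 and -0.632, and it was 0.0954 without HFD+F+CCl4 replicate 3. Between the models (-0.293) the difference was -0.0664 and -0.130 with the thinned cells, -0.153 without cells holding other markers and -0.151 without HFD+F+CCl4 replicate 3. For WD+F+CCl4 against control (-0.0558) it was -0.123 in cells with over 1000 genes, -0.0103 without cells holding other markers, -0.101 without control replicate 1 and -0.0108 without control replicate 2. Among cells with MHC class II, WD+F+CCl4 mice differed by -0.733 from control and by -0.528 from HFD+F+CCl4 mice. The cause was not tested. Counts of genes called by edgeR in the 6 mice were 34 for NASH, 8 for HFD+F+CCl4 and 8 for WD+F+CCl4 against control, 0 for WD+F+CCl4 against HFD+F+CCl4 and 39 for the interaction. In that order, they were 88, 79, 62 and 23 without a filter on low counts, and 21, 16, 22 and 1 by DESeq2. With no minimum of cells (8 mice), NASH gave 18, HFD+F+CCl4 13 and the interaction 24 calls. With thinned cells each contrast with control gave 0 calls, with 49, 41 and 44 of 350 genes at an unadjusted p under 0.05. With only the groups compared in the fit, HFD+F+CCl4 gave 30 and WD+F+CCl4 70. WD+F+CCl4 against control gave 14 with RLE size factors, 23 with library sizes alone and 17 with Ccr7 of at least 1 UMI. WD+F+CCl4 against HFD+F+CCl4 gave 2 with library sizes alone and 4 without cells that held markers of another type. Leaving out 1 mouse at a time gave 28 to 74 (74 without HFD+F+CCl4 replicate 1), 8 to 45, 4 to 63, 0 to 7 and 23 to 62. With 8 mice, leaving out each in turn, in the order control, HFD+F+CCl4, WD+F+CCl4, gave 1, 20, 33, 32, 25, 18, 15 and 30 calls for NASH, 1, 4, 13, 27, 11, 8, 10 and 15 for HFD+F+CCl4, 1, 11, 20, 15, 14, 5, 3 and 18 for WD+F+CCl4 and 0 to 2 between the NASH models. Without control replicate 1, Bclaf1 (-0.58), Ly6e (-0.0201) and mt-Cytb for WD+F+CCl4 (0.17) turned. The 6-mouse contrasts with control could not be fitted without control replicate 1 or without cells holding other markers, since no control mouse was left. The labels tie nothing to a replicate number. Over the genes of the 8-mouse fit, deviations from the group mean of same-numbered mice of the NASH models had r = -0.113, -0.0699 and -0.171, so the mice were not treated as paired. With 2 mice, the control deviations mirror each other and test no pairing. With the replicate number as a block the calls were 41, 43, 35 and 14, and with 8 mice 7, 1, 1 and 0. Depth limits these results, since both control mice together hold 19 mature DCs with 87740 UMIs.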

Other observations

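In mature DCs of WD+F+CCl4 replicate 1, the summed level of erythrocyte markers (most abundant Hbb-bs) was 3420 CPM, against 0 to 341 in the other 7 mice. NK cell markers summed to 1024 CPM and T cell markers to 1537 CPM in control replicate 2, against 0 to 78.9 and 0 to 237 in the others. Neutrophil markers (most abundant S100a8) summed to 26.3 and 171 CPM in control mice, 112, 720 and 685 in HFD+F+CCl4 mice and 107, 75.6 and 61.4 in WD+F+CCl4 mice, with Ly6g at 0 throughout. The part of these transcripts in any result was not tested.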
